A study of Canis lupus familiaris with 60 samples.

Results

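Skin that had received no patch was compared between nonsensitized Beagle dogs and Beagles made allergic to Dermatophagoides farinae, a house dust mite. The arrays were chosen by their labels, which give a time of 0 hr and no treatment, and 12 of the 60 arrays of the series carry both. They come from 6 sensitized and 6 nonsensitized dogs, with 1 array per dog. Each array held labelled RNA from an 8 mm punch of the clipped lateral chest, taken under local lidocaine before any patch was put on. All dogs were 2 to 3 years old and shared housing and feed. The sensitized group had 4 males and 2 females, and the nonsensitized group had 2 males and 4 females. Sensitization was made by repeated application of milled mites to the skin, so the animals are a model with a known trigger and not dogs with spontaneous disease. Sexes were thus unevenly spread, and because the labels do not give the sex of a single dog, its part was not tested.

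Skin keeps water in and allergens out with a cornified layer of dead keratinocytes, held together by a cross-linked protein envelope, by junctions and by lipids. Below it lies the dermis, a mesh of collagen fibres made by fibroblasts, with vessels, hair follicles, mast cells and scattered immune cells. In an animal sensitized to an allergen, IgE bound to its receptor on mast cells arms the skin for the next contact, and chemokines, the small proteins that attract leukocytes, help set which cells enter. The comparison asks whether dogs sensitized to an allergen differ in their skin when no allergen is present.

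Levels are given on a log2-like scale of the processed signal after scaling between arrays, which follows log2 for bright probes. A difference is the sensitized mean minus the nonsensitized mean, so for bright probes a difference of 1 is 2.0-fold. For dim probes the scale compresses differences, so a plain log2 ratio can be larger. Fold limits below are read on this scale. Probes had to be well above background, as the image software marks it, on at least 5 of the 6 arrays of either group to be kept. Of 60068 probes with 54633 identifiers, 45097 probes with 40450 identifiers were kept. The files pair 1240 gene symbols with a kept probe, and each gene is given by its brightest one. Levels of different probes are not comparable, so each gene is compared only with itself. A summed level of a list is carried by its probes of highest signal and is compared only between dogs.

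The arrays of the sides overlapped only in part on the glass slides. Slide 7 held 2 sensitized and 5 nonsensitized dogs, slide 8 held 3 sensitized dogs and 1 nonsensitized dog, and slide 6 held 1 sensitized dog alone, dog 2838. Values within slide 7, and values with the slide as a block, are therefore given beside the main results. Within slide 8 the nonsensitized side is dog 2847 alone. The share of spots well above background ran from 71.06% to 80.15% in the sensitized dogs (median 79.0%) and from 72.22% to 78.26% in the others (median 75.0%). The groups overlapped in this measure, and the lowest array of all was that of dog 2838. Their difference was 2.28 percentage points (exact two-sided permutation p = 0.188, adjusted 0.188). The median processed signal, in intensity units, ran from 84.8 to 125.76 (median 108) in the sensitized dogs and from 87.2 to 101.18 (median 98.2) in the others, with a difference of 8.96 (exact two-sided permutation p = 0.173, adjusted 0.188). Without dog 2838 both differences grew, to 3.56 points and 13.1 units, each with an exact two-sided permutation p of 0.013. That p rests on leaving out the array with the lowest share, and without any other dog the p values lay between 0.126 and 0.346. Within slide 7 they were 3.27 points and 21.1 units. With all dogs neither difference passed the limit of 0.05. The part of array brightness in the results was not tested.

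The biopsies carried the markers of skin. All 10 kept genes of the cornified envelope and all 4 kept epidermal keratins were well above background on the 12 arrays. The keratin KRT1, made in the upper epidermis, had levels of 15.75 to 17.09 in the sensitized dogs and 16.0 to 17.01 in the others. COL1A2, a chain of type I collagen in the dermis, had levels of 16.49 to 18.09 over all dogs. Genes of vessels (7 kept), mast cells (7), fat (5) and melanocytes (8) were kept as well. No listed gene of smooth muscle could be named on the array.

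The biopsy of dog 2847 stood apart from the other 11 in skeletal muscle genes. Its score for this list, the mean over 8 kept genes of the log2 level minus the mean of the 12 dogs, was 2.13, whereas the other dogs ranged from -0.39 to -0.04. MYOZ1, a protein of the muscle Z-disc, stood at 11.18 in dog 2847 and at 5.24 to 5.77 in the sensitized dogs, with 5.74 as the next value among the nonsensitized. The muscle proteins TCAP (11.54, next nonsensitized value 8.46), MYH7 (9.16, next 6.55) and MYL2 (10.03, next 6.79) showed the same single high dog. The summed level of the list, on the unlogged scale, was 10800 in that dog and 3950 to 5240 in the sensitized dogs. The gene of highest signal was DMD, with a difference of 0.00. The muscle myosins MYH2 and MYH4 were below the filter. The median difference of the 8 muscle genes was -0.45 with all dogs, -0.08 without dog 2847, -0.06 within slide 7 and -0.84 with the slide as a block. The processed signals in this dog's file are whole numbers and its settings block is missing, unlike the other 11 files. Results that rest on dog 2847 are given with and without it below.

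With 12 dogs, no identifier separated the groups at the limits used, an adjusted limma p below 0.05 together with 1.5-fold or more: 0 of 40450 identifiers were called (0.0%). The smallest adjusted limma p was 0.9999. At an unadjusted limma p below 0.05 there were 1461 identifiers (3.61%), of which 861 were higher (2.13%) and 600 lower (1.48%) in the sensitized dogs. That count was 2251 without dog 2838 and 870 without dog 2840, and between 1144 and 1913 without any other single dog. It was 1382 with the slide as a block, 920 within slide 7, 3012 within slide 8, 2628 with array weights, 1647 with a variance trend and 2583 without scaling between arrays. Without scaling the median difference of all probes was 0.11, against 0.00 in the main values, and list medians given below that lie between -0.10 and 0.00 turn positive with it. Adding 1.5-fold left 129 identifiers (0.319%), 81 higher (0.2%) and 48 lower (0.119%). An unadjusted p below 0.002 with 1.5-fold left 24 (0.0593%), 19 higher (0.047%) and 5 lower (0.0124%). Without regard to p, 322 identifiers differed by 1.5-fold (0.796%), 144 upward (0.356%) and 178 downward (0.44%). The 2 groups did not overlap at all for 66 identifiers (0.163%), 35 higher (0.0865%) and 31 lower (0.0766%). Among the 1240 genes with a symbol, 44 had an unadjusted p below 0.05 (3.55%), with 31 higher (2.5%) and 13 lower (1.05%). Of these, 7 passed 1.5-fold, all higher (0.565%), and 1 of the 7, CRYGB, passed the filter through the sensitized dogs alone. The groups did not overlap for 2 genes with a symbol (0.161%). For each of the 83 genes and transcripts chosen to be named, the adjusted p was 0.9999.

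The differences were mostly small and their errors narrow. The median absolute difference over all probes was 0.07, and 95% of the differences lay between -0.27 and 0.30. The median standard error (SE) was 0.11, and the median within-group SD over dogs was 0.19. For 40337 probes (89.4%) the 95% confidence interval lay wholly within 1.5-fold either way, and for 43847 (97.2%) within 2.0-fold. Probes are not independent replicates. For dim probes the scale compresses both the differences and their spread. There an interval within 1.5-fold does not bound the plain log2 ratio. Limits by number of dogs remain for variable genes: the SD passed 0.67 for the most variable 2.5% of probes.

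Genes of the dermal matrix leaned to the sensitized side, with type I collagen in front. Of 30 listed genes 10 were kept, and 4 of them had an unadjusted limma p below 0.05, all higher in the sensitized dogs, with none lower. This compares with 2.5% higher among all genes with a symbol. The differences were positive for 8 and negative for 2 genes, with a median of 0.24, whereas the median over all probes was 0.00. The negative values were TIMP2 (-0.03, and -0.23 within slide 7) and PDGFRB (-0.05, and 0.18 within slide 7). With the slide as a block 2 genes of the list, COL1A1 and ADAMTS4, had an unadjusted p below 0.05, and within slide 7 there were 0. With any single dog left out there were 4 or 5, and COL1A2 was not among them without dog 2847. No gene of the list passed the adjusted limit.

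COL1A1, the main chain of type I collagen, had a lowest, median and highest level of 15.85, 16.24 and 16.52 in the sensitized dogs and of 14.23, 15.41 and 16.06 in the nonsensitized dogs. The 4 highest sensitized dogs lay above every nonsensitized dog, and the low end of the nonsensitized group was dog 2716 at 14.23 and dog 2847 at 14.74. The difference was 0.94 (SE 0.27, 95% interval 0.36 to 1.51), or 1.92-fold. All 4 probes of the gene gave 0.90 to 1.03. The difference was 0.73 without dog 2716, 0.83 without dog 2847, 1.01 with the slide as a block and 0.71 within slide 7. It kept its sign in every one of these.

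COL1A2, the partner chain, had levels of 17.59, 17.86 and 18.09 in the sensitized dogs and of 16.49, 17.46 and 17.94 in the others. Here 3 sensitized dogs lay above the nonsensitized range, and the rest overlapped with it. The difference was 0.54 (SE 0.21, 95% interval 0.09 to 0.99), and its 6 probes gave 0.54 to 0.85. It was 0.37 without dog 2716 and 0.29 within slide 7. COL6A3, a chain of the beaded type VI collagen around fibres and cells, differed by 0.49, and its 3 probes stood at 0.31 to 0.49. All probes of these 3 collagen genes pointed the same way. These probe values, and those of SERPINH1 below, were looked at after the collagen differences were seen. SERPINH1, the chaperone that collagen needs to fold, had 3 probes with differences of 0.12, 0.22 and 0.41.

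ADAMTS4, a secreted protease that cuts aggrecan and other proteoglycans, had levels of 8.41, 9.12 and 9.64 in the sensitized dogs and of 8.02, 8.39 and 8.69 in the others. In 4 sensitized dogs it lay above all nonsensitized dogs. The difference was 0.61 (SE 0.18), 0.58 with the slide as a block and 0.47 within slide 7. COL2A1, a collagen known from cartilage, differed by 0.59 (SE 0.19) at a low level, 6.78 to 7.24 against 5.69 to 6.92. Its 3 probes gave 0.20, 0.41 and 0.59, and the last was 0.42 within slide 7. Other matrix genes differed less: BGN, a small proteoglycan, by 0.28, TIMP1, an inhibitor of matrix-degrading proteases, by 0.19, COL7A1, the collagen of the anchoring fibrils under the epidermis, by 0.16, and DCN, a proteoglycan that coats collagen fibrils, by 0.08. DCN turned to -0.05 within slide 7 and -0.06 without dog 2716, and COL7A1 to 0.00 with the slide as a block. The lean was thus carried by part of the list. Its summed level ran from 376000 to 504000 in the sensitized dogs (median 421000) and from 181000 to 484000 in the others (median 333000), with COL1A2 as the gene of highest signal. More cells of a type and more RNA per cell cannot be told apart in whole biopsies.

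**Figure D1:**
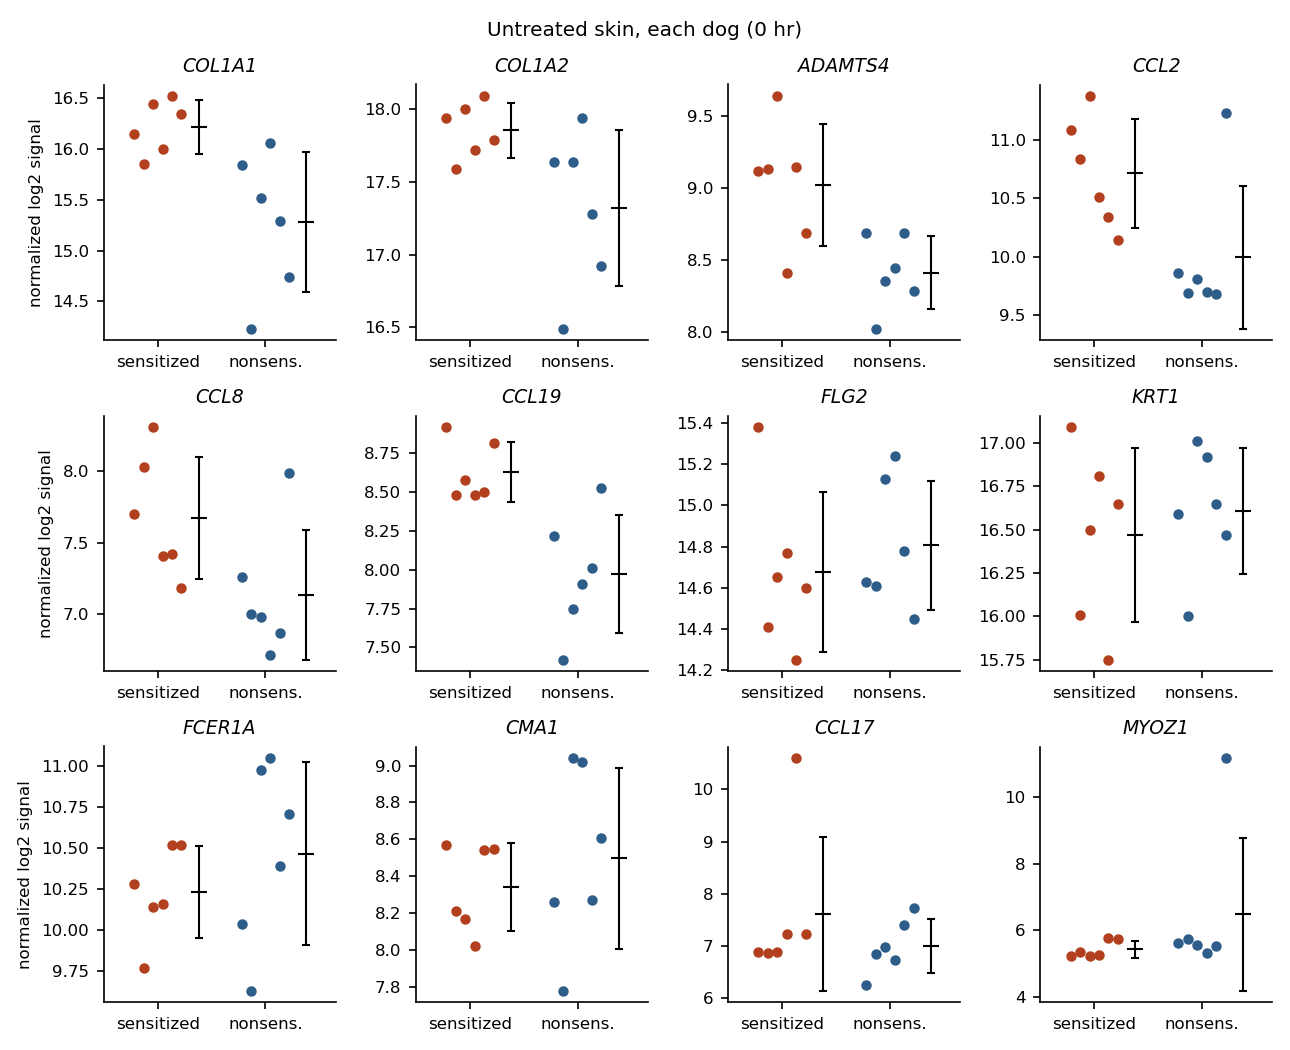
Log2 levels in untreated skin of 12 genes, 1 panel per gene with its own vertical axis, with 1 point per dog and the mean with SD (n = 6) per group. COL1A1 and ADAMTS4 lie higher in most sensitized dogs, CCL17 is high in dog 2853 alone (10.6) and MYOZ1 in dog 2847 alone (11.18), while FLG2, KRT1, FCER1A and CMA1 overlap.

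Among the chemokines, of 31 listed genes 20 were kept, and 4 had an unadjusted limma p below 0.05, all higher in the sensitized dogs, beside 2.5% higher among all genes with a symbol. The difference was positive for 15 and negative for 5, with a median of 0.07, and that median was 0.04 within slide 7 and -0.01 with the slide as a block. The 4 were CCL19, CCL2, CCL8 and CCL7, and none passed the adjusted limit. Blocking on the slide left only CCL19 at an unadjusted p below 0.05, and within slide 7 all but CCL7 were below it. Higher chemokines at that p numbered 1 without dog 2838 or 2840, again CCL19, and 2 without dog 2839, 2716, 2802 or 2845. Lower at that p were CCL24 without dog 2853 and CXCL1 without dog 2716. CCL19 was thus the only one of the 4 to stay below 0.05 in each of these.

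CCL19, which draws dendritic cells and naive T cells that carry the receptor CCR7, had levels of 8.48, 8.54 and 8.92 in the sensitized dogs and of 7.42, 7.96 and 8.53 in the others. The groups met only through dog 2847, the highest nonsensitized dog, and without it the next value was 8.22. The difference was 0.66 (SE 0.16, 95% interval 0.31 to 1.00), 0.77 without dog 2847, 0.52 with the slide as a block and 0.79 within slide 7. Within slide 8, where dog 2847 is the only nonsensitized dog, it was 0.00.

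CCL2, the main attractant of monocytes, had levels of 10.14, 10.67 and 11.37 in the sensitized dogs and of 9.68, 9.76 and 11.23 in the others. Dog 2847 was again the exception: the remaining nonsensitized dogs stood at or below 9.86, under every sensitized dog. The difference was 0.71 (SE 0.28), 0.96 without dog 2847, 0.74 within slide 7, 0.31 with the slide as a block and -0.49 within slide 8. CCL8, a relative of CCL2 that attracts monocytes and other leukocytes, followed the same dogs, with levels of 7.18, 7.56 and 8.31 against 6.71, 6.99 and 7.99. Its difference was 0.54 (SE 0.23), 0.71 without dog 2847, 0.32 with the slide as a block and -0.27 within slide 8. The 2 probes of CCL8 gave 0.25 and 0.54, and only 1 had an unadjusted p below 0.05. CCL7, also of this monocyte family, differed by 0.40.

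CCL17, a ligand of the receptor CCR4 on type 2 helper T cells, showed a single high animal. Dog 2853 stood at 10.6, whereas the other sensitized dogs lay at 6.87 to 7.23 and the nonsensitized dogs at 6.26 to 7.73. The difference was 0.62 with this dog and 0.02 without it, and 0.30 with the slide as a block. CCL27, which keratinocytes make to attract skin-homing T cells, differed by -0.24 (95% interval -0.72 to 0.25), CCL24, an attractant of eosinophils, by -0.35, and CXCL8, an attractant of neutrophils, by 0.30. CCL26 and CXCL6 were below the filter on all 12 arrays. Of the chemokine receptors 6 were kept, with a median difference of -0.03 and no unadjusted p below 0.05 with all dogs. CCR4 differed by -0.07.

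Lower in the sensitized dogs, at an unadjusted limma p below 0.05, were genes of several unlike functions, each by less than 1.5-fold. WDFY4, needed by dendritic cells to present antigens of other cells, had levels of 9.21, 9.42 and 9.91 against 9.58, 9.97 and 10.31. In 4 sensitized dogs it lay below every nonsensitized dog, with a difference of -0.48 (SE 0.13), -0.43 with the slide as a block and -0.46 within slide 7. AOX4, an aldehyde oxidase, differed by -0.57 (95% interval -1.14 to 0.00), or -0.67 with the slide as a block and -0.95 within slide 7, with dog 2838 as a high exception at 12.67. It stood at 11.09 to 11.68 in the other 5 sensitized dogs and at 11.59 to 12.81 in the nonsensitized. PTGES, the enzyme that makes prostaglandin E2, differed by -0.35 (-0.21 with the slide as a block), TLR1, a receptor for bacterial lipopeptides, by -0.31, and PLSCR1, a phospholipid scramblase induced by interferon, by -0.42. CRH, the stress hormone that releases corticotropin, differed by -0.41, and SSPO and FAM13A by -0.38 each (SSPO by -0.21 within slide 7). CRH, PLSCR1 and SSPO were dim, with no level above 6.98. For such probes the size depends on the scaling: PLSCR1 stood at -0.71 under scaling to the 75th percentile and -0.18 with a normexp correction, and SSPO at -0.68 and -0.16, so both passed 1.5-fold under the former. None of these 8 genes separated the groups fully. With the slide as a block only WDFY4, AOX4 and SSPO kept an unadjusted p below 0.05, and within slide 7 only WDFY4 and AOX4. Leaving out a dog ended it for AOX4 with 9 of the dogs, for TLR1 and CRH with 7 each and for PTGES and FAM13A with 5 each, and for WDFY4, PLSCR1 and SSPO with 0.

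**Figure D2:**
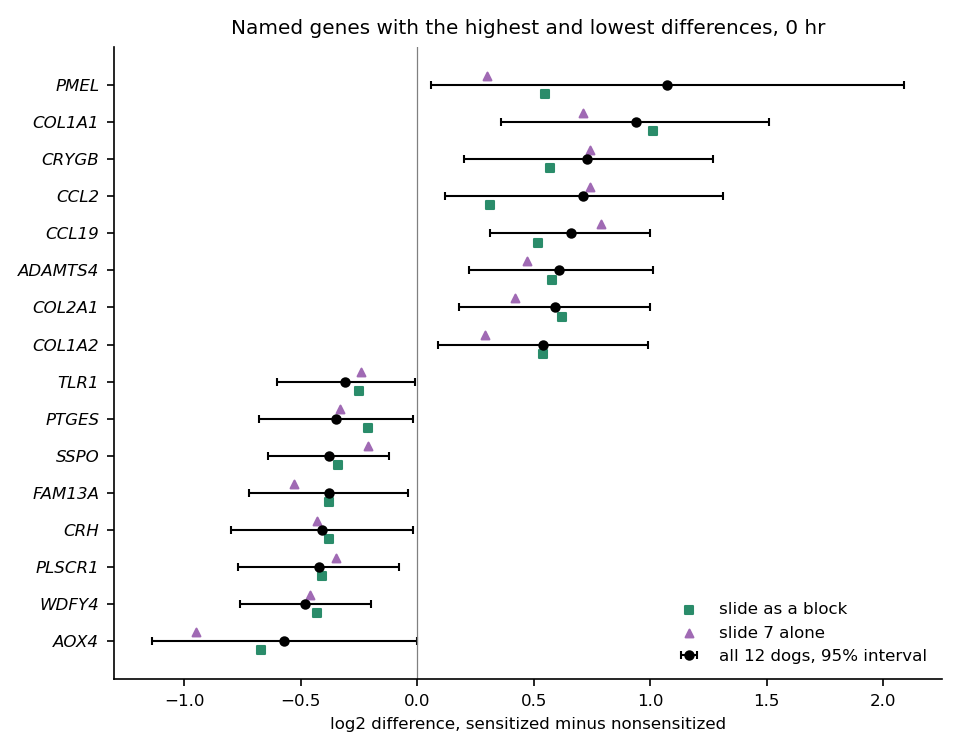
Differences (log2, sensitized minus nonsensitized) in untreated skin for the 8 highest and 8 lowest genes with a symbol and an unadjusted limma p below 0.05, with 95% intervals, and the values with the slide as a block and within slide 7. COL1A1 stands at 0.94 overall and 0.71 within slide 7, and PMEL at 1.07 overall and 0.30 within slide 7.

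The barrier genes of the epidermis differed little with all 12 dogs, where no gene of these lists had an unadjusted p below 0.05. Of the cornified envelope 10 genes were kept, with a median difference of -0.06. It was 0.05 without scaling, -0.12 with the slide as a block and -0.11 within slide 7. FLG2, a filaggrin-like protein of the cornified layer, had levels of 14.25, 14.62 and 15.38 against 14.45, 14.71 and 15.24. The groups covered nearly the same range, and the difference was -0.13 (95% interval -0.53 to 0.27). LOR, the loricrin of the envelope, differed by 0.23 (95% interval -0.23 to 0.68), TGM1, the enzyme that cross-links it, by -0.05 (-0.28 to 0.18), and KRT1 by -0.14 (-0.62 to 0.35). With all dogs the intervals of FLG2 and TGM1 lay within 1.5-fold, 0.58 on this scale, and those of LOR and KRT1 did not. Within slide 7 FLG2 stood at -0.37 (95% interval -0.83 to 0.08), which reaches past 1.5-fold, and TGM1 at -0.09 (-0.41 to 0.23). The 4 epidermal keratins had a median of -0.06, turning to 0.05 without scaling and 0.01 without dog 2853. It was -0.14 with the slide as a block, -0.18 within slide 7 and -0.17 without dog 2716. KRT1 stood at -0.30 within slide 7.

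Junction, protease and lipid genes had list medians near 0. The 8 junction genes had a median of -0.08 (0.03 without scaling), with -0.13 for DSG1, the desmoglein of the upper epidermis, -0.08 for DSP, which anchors keratins to desmosomes, -0.08 for OCLN and -0.20 for CGN, both of tight junctions. The 6 proteases and inhibitors had a median of 0.07 (-0.05 with the slide as a block), with -0.23 for SPINK5, an inhibitor of the shedding proteases, and 0.03 for one of those, KLK5. The 7 lipid genes had a median of -0.10 (0.01 without scaling), with -0.14 for ALOXE3, a lipoxygenase of the lipid envelope, -0.11 for SGMS1, which makes sphingomyelin, and 0.01 for PPARA, a lipid-sensing receptor. With all dogs the interval of each gene named so far here lay within 1.5-fold. DSG1 had an unadjusted p below 0.05 with the slide as a block (-0.23), within slide 7 (-0.26) and without dog 2838. SPINK5 had one with the slide as a block (-0.38, 95% interval -0.74 to -0.01) and without dog 2704. Single dogs left out brought other genes of these lists below 0.05: CGN without dog 2716, KLK8 without 2853, ALOXE3 and ASAH2 without 2855, and SGMS1 without 2847.

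Hair follicle genes varied more. The 4 kept genes had a median of 0.18, which was 0.46 within slide 7, 0.38 without dog 2716, 0.12 without 2853, 0.05 without 2800 and 0.04 without 2802. KRT71, a keratin of the inner root sheath, had levels of 8.3 to 9.44 in the sensitized dogs and 6.74 to 9.03 in the others, with a difference of 0.70 (95% interval -0.08 to 1.48). FGF5, the signal that ends hair growth, differed by 0.39 (-0.67 to 1.45), or 0.75 within slide 7, 0.07 without dog 2802, 0.08 without 2800 and 0.72 without 2716. Without dog 2800, the lowest for KRT71, the difference in KRT71 was 0.40, and its unadjusted p was below 0.05 without dog 2716 or 2847.

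Markers of the allergic arm overlapped between the groups. The list of mast cells and the IgE receptor had 7 kept genes with a median of -0.19, and no unadjusted p below 0.05 with all dogs. The median was -0.33 without dog 2716 and -0.05 without dog 2800 or 2802. KIT was below 0.05 without dog 2841, and HDC without 2855 or 2716. FCER1A, the chain of the receptor that binds IgE, had levels of 9.77, 10.22 and 10.52 against 9.63, 10.55 and 11.05. The sensitized dogs lay inside the range of the others, and the difference was -0.24 (95% interval -0.73 to 0.25). MS4A2, the receptor's signal-amplifying chain, differed by -0.26, FCER1G, its shared signalling chain, by 0.02, CMA1, the mast cell chymase, by -0.16, KIT, the growth factor receptor of mast cells, by 0.13, and HDC, which makes histamine, by -0.26. The summed level of the list ran from 2560 to 3610 in the sensitized dogs and from 2080 to 5540 in the others, with the lowest score in dog 2716 and the highest in dog 2802. The score had an SD of 0.42 among the nonsensitized and 0.20 among the sensitized dogs. KIT went the other way (SD 0.13 and 0.28), and no test of the spread was run.

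Cytokines of type 2 immunity were mostly too dim to compare. IL4 and IL13, which drive IgE production, and IFNG, the type 1 counterpart, were well above background on 0 arrays, as were IL1B, IL6, IL21 and FOXP3, the regulator of suppressive T cells. IL5, the eosinophil growth factor, was so on 2 sensitized and 0 nonsensitized arrays. A signal near background is a limit of the array and does not show that a transcript is absent. The 8 kept genes of the list had a median of 0.03. IL31, the itch cytokine, differed by 0.05, IL13RA2, a decoy receptor for IL13, by 0.14 (95% interval -0.04 to 0.33), and GATA3, a transcription factor of type 2 cells and keratinocytes, by 0.04. The 13 genes around IL1, IL6 and TNF had a median of 0.02, and TNF itself differed by 0.02 (-0.19 to 0.22).

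Resident immune cell markers overlapped throughout, with no unadjusted p below 0.05 in any of these lists with all dogs. T and NK cell genes (9 kept) had a median of -0.03, with -0.04 for CD4 and -0.01 for CD8A, which mark helper and killer T cells. Macrophage and dendritic cell genes (16) had a median of 0.01, with 0.04 for the lipopolysaccharide receptor CD14, -0.05 for the scavenger receptor CD163 and 0.01 for the mannose receptor MRC1. Antigen presentation genes (15) had a median of -0.04, or 0.07 without scaling. DLA88, a class I molecule, differed by -0.32 (95% interval -0.70 to 0.07), or -0.16 within slide 7 and without dog 2802, and the class II chains DLA-DRA and HLA-DRB1 by -0.07 and 0.05. Dog 2802 had the highest score of this list (0.62) and dog 2716 the lowest (-0.44), both nonsensitized. Granulocyte genes (5) had a median of 0.00, interferon-induced genes (6) of 0.06, complement genes (4) of -0.06 and endothelial genes (7) of 0.03. Within slide 7 the complement median was 0.05 and the endothelial median 0.18, and the latter was 0.14 without dog 2838. The interferon-response median was 0.22 with the slide as a block and 0.23 within slide 7, and MX1, an antiviral protein of that list, differed by 0.05 overall and 0.40 within slide 7. For B and plasma cells only CD38 was kept (-0.19), and the B cell marker MS4A1 was below the filter. In the interferon list OAS2 had an unadjusted p below 0.05 with the slide as a block (0.34) and without dog 2802, and OAS1 within slide 7 (0.44). Single dogs left out did the same for TLR4 (2716), CD86 (2802), MMP9 (2839), PSMB9 (2704 or 2716) and DLA88 and DLA-64 (2800).

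Antimicrobial proteins and alarmins (6 kept) had a median of -0.21, with 5 of 6 values negative. That median was -0.06 without dog 2847, -0.32 without dog 2802 and -0.04 within slide 7. CBD103, a beta-defensin, was lower at an unadjusted p below 0.05 without dog 2802. S100A8, a calcium-binding protein of neutrophils and stressed keratinocytes, had levels of 11.49, 12.25 and 13.81 against 11.17, 12.76 and 15.1. Its highest value was that of dog 2847, and the difference was -0.51 with that dog, -0.06 without it and 0.40 within slide 7. IL33, an alarmin released by damaged epithelium, differed by -0.56 (95% interval -1.36 to 0.24), by -0.27 without dog 2838 and by -0.23 within slide 7. The 2 probes of IL33 gave -0.56 and -0.08. Both genes varied too much among the dogs for a 1.5-fold change to be told from none. CAMP, the cathelicidin precursor, differed by -0.01.

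**Figure D3:**
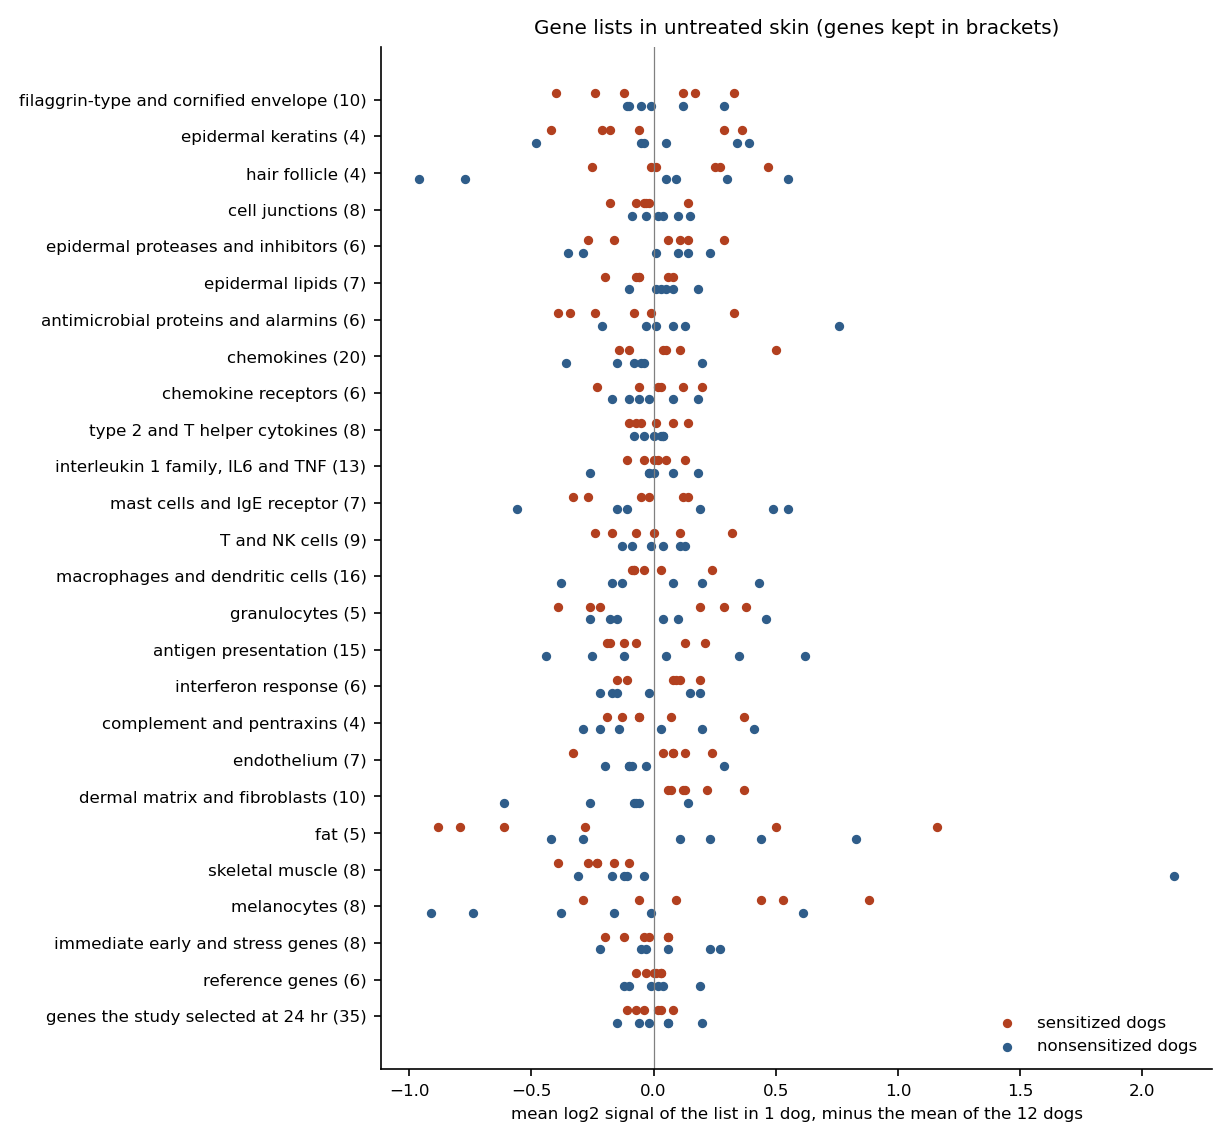
Scores of gene lists in untreated skin, 1 point per dog: the mean log2 level of the kept genes minus the mean of the 12 dogs, for lists with at least 4 kept genes. The skeletal muscle score of dog 2847 stands at 2.13, and the lowest dermal matrix score, -0.61, is that of nonsensitized dog 2716.

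Pigment genes had positive differences overall and smaller ones within slide 7. All 8 kept melanocyte genes had positive differences, with a median of 0.54, and 1 of them, PMEL, had an unadjusted limma p below 0.05, beside 2.5% higher among all genes with a symbol. The median was 0.27 with the slide as a block and 0.07 within slide 7. PMEL, which forms the fibrils of pigment granules, had levels of 12.17, 13.46 and 14.34 against 11.01, 12.38 and 13.87. The groups overlapped widely, and the difference of 1.07 (SE 0.47, 95% interval 0.06 to 2.09) was 0.55 with the slide as a block and 0.30 within slide 7. The 2 probes of PMEL gave 0.52 and 1.07. TYRP1, an enzyme of melanin synthesis, differed by 1.07 (95% interval -0.01 to 2.14), MLANA by 0.67 and MC1R, the receptor that switches pigment type, by 0.08. MLANA, MITF and MC1R turned to -0.05, -0.03 and -0.05 within slide 7. The summed level of the list ran from 7490 to 29100 in the sensitized dogs and from 3620 to 22100 in the others, with PMEL as its gene of highest signal. TYR and ASIP were below the filter. PMEL had no unadjusted p below 0.05 with the slide as a block, within slide 7, or without dog 2838, 2840, 2853, 2800, 2802 or 2845, where 0 genes of the list had one. The number was 4 without dog 2839, 5 without 2704 and 2 without 2855 or 2847.

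The most variable genes with a symbol ranged widely among single dogs, some of them in 1 group only. Among the sensitized dogs the SD was 0.13 for ZACN and 0.25 for MYOZ1, against 1.85 and 2.30 in the others. For UCP1 it was 1.63 among the sensitized and 0.44 among the nonsensitized dogs. PCK1, an enzyme active in fat cells, had the largest within-group SD (1.97), with levels of 7.36 to 13.23 in the sensitized dogs and 8.95 to 13.18 in the others. UCP1, the uncoupling protein of brown fat, reached 9.94 in dog 2839, the dog that was also highest for PCK1 and, among the sensitized dogs, for the fat hormone ADIPOQ (13.57). The fat list (5 kept) had a median of -0.30, or 0.05 with the slide as a block, 0.09 within slide 7, -0.51 without dog 2839, -0.19 without 2855, -0.09 without 2800 and -0.46 without 2847, and its summed level ran from 6330 to 30100 in the sensitized dogs and from 8120 to 23600 in the others. ADIPOQ gave its highest signal. ZACN, a zinc-activated channel, stood at 9.77 in nonsensitized dog 2800 and at no more than 5.4 in the sensitized dogs, so its difference was -0.75 with that dog and 0.00 without it. PDE6B, a phosphodiesterase known from photoreceptors, differed by 0.18 (SD 1.33), or by 0.93 with the slide as a block, 1.54 within slide 7 and -0.28 without dog 2839. It passed the filter through the sensitized dogs alone, with 6 and 4 arrays well above background. CRYGB, a lens crystallin, was dim and stood at 5.06 to 6.72 against 4.72 to 5.37, a difference of 0.73. This was 1.21 under scaling to the 75th percentile, but 0.41 with a normexp correction and 0.56 without dog 2838, both below 1.5-fold. CRYGB was well above background on 6 sensitized and 4 nonsensitized arrays, so it passed the filter through the sensitized dogs alone.

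Reference and stress genes depended on the slide and on dog 2847 in part. The 6 reference genes had a median of 0.01, with 0.01 for ACTB, 0.11 for HPRT1 and -0.20 for GAPDH. GAPDH, an enzyme of glycolysis, stood at 15.63 in dog 2847 and at no more than 14.78 in the other nonsensitized dogs, and its difference was -0.04 without dog 2847 and -0.37 with the slide as a block, where its unadjusted p was below 0.05. Stress and immediate early genes (8) had a median of -0.07, or 0.04 without scaling, with -0.12 for the chaperone HSP70 and -0.16 for PTGS2, the inducible prostaglandin synthase. PTGS2 stood at -0.56 (95% interval -0.92 to -0.21) with the slide as a block, where its unadjusted p was below 0.05, at -0.38 within slide 7 and at -0.01 without dog 2847. Of sex-linked genes KDM6A (-0.13) and KDM5C (0.05) were kept. At an unadjusted p below 0.05 KDM6A was lower within slide 7, and KDM5C higher without dog 2838. The only kept genes of the cell cycle list, CCND1 and CDKN2B, differed by 0.05 and -0.11, and MUC1 of glands by 0.03. Genes that the study had selected at 24 hr from these same dogs are no independent list. Of its 36 genes 35 were kept, with a median of -0.02 in untreated skin and 1 unadjusted p below 0.05, that of CCL8, beside 3.55% of all genes with a symbol. With the slide as a block CCL8 was above 0.05, and SPINK5 and DSG1, both lower, were below it.

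Transcripts without a symbol, and the 2 genes whose groups did not overlap, were singled out after their values were seen. The 2 genes were CKAP4, a membrane protein of the endoplasmic reticulum, at 12.94 to 13.34 against 12.77 to 12.93 (difference 0.22, 0.08 within slide 7), and CAD, an enzyme of pyrimidine synthesis, at 9.51 to 9.88 against 9.2 to 9.49 (difference 0.19, 0.15 within slide 7). Neither had an unadjusted p below 0.05 with the slide as a block. XM_846544.1 had levels of 5.47, 5.73 and 6.31 in the sensitized dogs and of 6.56, 6.78 and 7.03 in the others. Each sensitized dog lay below each nonsensitized dog, with a difference of -0.96 (SE 0.15), -0.89 within slide 7. It is dim, and its difference was -0.62 with a normexp correction and -1.24 under scaling to the 75th percentile. CF411272 had levels of 9.52, 10.2 and 10.52 against 8.99, 9.18 and 9.61, and 5 sensitized dogs lay above all others. Its difference was 0.93 (SE 0.17), 0.62 within slide 7. Neither transcript passed the adjusted limit in untreated skin. ENSCAFT00000041612 was well above background on 6 sensitized arrays and 1 nonsensitized array, so it passed the filter through the sensitized dogs alone and the other side lay near background. There the size of its difference depends on the scaling, from 0.22 with a normexp correction to 1.92 without scaling. ENSCAFT00000012133 also separated the groups, with 5.46 to 5.69 against 5.79 to 5.99 (difference -0.30).

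The saline sites of the same dogs at 6 hr show whether a difference in untreated skin recurs in another biopsy. For this, 59 arrays of all 10 groups were fitted together, without the 24 hr allergen array of dog 2839. Group and slide were partly confounded at the 6 hr saline site. Of its arrays, slide 4 held those of nonsensitized dogs 2800, 2802 and 2845 and none of a sensitized dog. The test of the difference in untreated skin minus that at the 6 hr saline site called 0 of 41227 identifiers (0.0%), with 469 at an unadjusted limma p below 0.05 (1.14%), 234 higher (0.568%) and 235 lower (0.57%). For XM_846544.1 the difference in this fit was -1.07 (SE 0.22) in untreated skin and, for saline and then allergen, -1.08 and -0.75 at 6 hr and -1.19 and -1.15 at 24 hr. For CF411272 it was 0.94 (SE 0.21) in untreated skin, then 0.94 and 0.87 at 6 hr and 1.05 and 0.71 at 24 hr. Both transcripts thus held differences of like size at all 5 sites, which share the same dogs. Both missed the adjusted limit in untreated skin and at 6 hr and passed it at 24 hr. The adjusted limma p there was 0.0141 (saline) and 0.000421 (allergen) for XM_846544.1 and 0.0141 and 0.0149 for CF411272. The other 2 singled out did not hold a like size. ENSCAFT00000012133 stood at -0.35, then -0.01 and -0.13, and -0.06 and -0.21, and ENSCAFT00000041612 at 0.84, then 0.27 and 0.65, and -0.03 and -0.28. COL1A1 did not hold a like size either: its difference was 0.94 (SE 0.34) in untreated skin, 0.20 at 6 hr saline, 0.48 at 6 hr allergen, -0.21 at 24 hr saline and 0.01 at 24 hr allergen. CCL2 stood at 0.72 (SE 0.42) in untreated skin, then -0.60 and 1.38 at 6 hr and -0.27 and 2.09 at 24 hr, and CCL19 at 0.67 (SE 0.29), then -0.22 and 0.46, and -0.04 and 1.93. PMEL had positive values throughout, 1.07 (SE 0.78) in untreated skin, 1.74 and 2.16 at 6 hr and 1.90 and 0.99 at 24 hr, and so had TYRP1, with 1.07 (SE 0.87), then 1.89 and 2.30, and 1.82 and 0.87. These values of the 2 pigment genes missed the adjusted limit at each site. For COL1A1, CCL2 and CCL19 the change between untreated skin and 6 hr saline did not pass the adjusted limit, with the dog as a block or without.

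**Figure D4:**
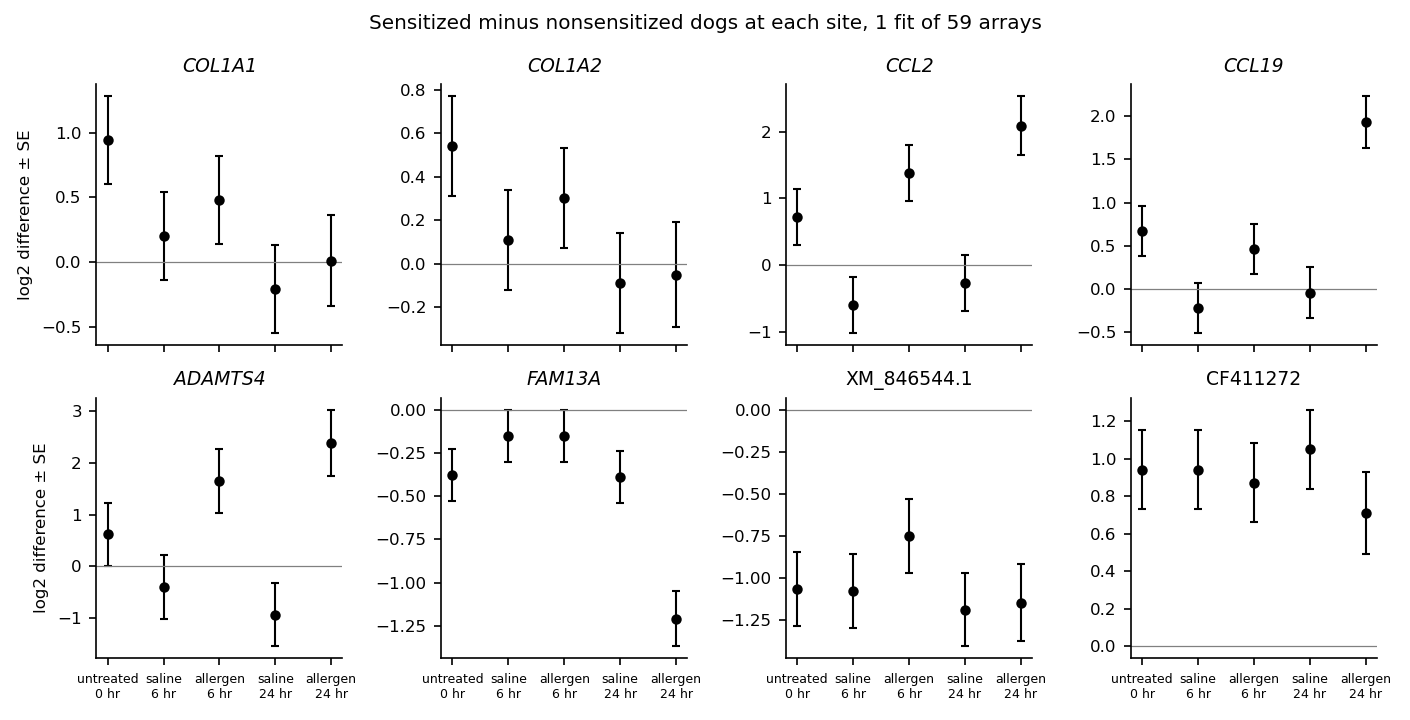
Differences between sensitized and nonsensitized dogs (log2, with SE) at untreated skin and at the 4 patch sites for 8 transcripts, from 59 arrays in 1 fit, each panel with its own vertical axis. XM_846544.1 lies between -0.75 and -1.19 and CF411272 between 0.71 and 1.05 over the 5 sites, whereas COL1A1 stands at 0.94 in untreated skin and 0.01 at 24 hr allergen.

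The difference between the dogs in untreated skin departed from that at the 24 hr allergen site for 809 of 41227 identifiers (1.96%), with 512 higher (1.24%) and 297 lower (0.72%) in untreated skin at the limits above. At an unadjusted limma p below 0.05 it departed for 9544 (23.1%), 4378 higher (10.6%) and 5178 lower (12.6%), with some identifiers in both through different probes. The count of 809 moved with single dogs: there were 162 without dog 2838, 409 without 2839, 182 without 2840, 2268 without 2841, 291 without 2855, 215 without 2716, 333 without 2800, 2362 without 2802, 168 without 2845 and 203 without 2847. Blocking on the slide gave 17, and blocking on the dog gave 2769. Group and slide were partly confounded at the 24 hr allergen site too. Of its arrays, slide 1 held those of nonsensitized dogs 2716, 2800, 2845 and 2847 and none of a sensitized dog. PTX3, a pentraxin made in acute inflammation, differed by -0.02 between the dogs in untreated skin and by 3.17 at 24 hr allergen. In untreated skin PTX3 was dim, at 5.3 to 5.57 in the sensitized and 5.13 to 5.77 in the nonsensitized dogs. MRC1 differed by 0.01 and 1.31, and LOR by 0.23 and -1.23. These changes between sites had an adjusted limma p of 0.0131, 0.0247 and 0.0386. For AOX4 the difference of -0.57 in untreated skin stood beside -3.20 (adjusted p = 0.0143), and for PTGES -0.35 beside 0.75 (adjusted p = 0.024). CCL2 (0.72 and 2.09, adjusted p = 0.174) and FLG2 (-0.13 and -1.20, adjusted p = 0.0553) missed the limit. With the dog as a block FLG2 passed it (adjusted p = 0.00393), CCL2 did not (adjusted p = 0.107), and the other 5 genes passed again. With the slide as a block 0 of the 7 passed. The change between sites, without and with that block, was -3.19 and -3.44 for PTX3, -1.30 and -1.25 for MRC1 and 1.46 and 1.55 for LOR. It was 2.63 and 3.17 for AOX4, -1.10 and -0.91 for PTGES, -1.37 and -1.63 for CCL2 and 1.07 and 1.46 for FLG2. COL1A1 (0.94 and 0.01, adjusted p = 0.259) and CCL19 (0.67 and 1.93, adjusted p = 0.0782) missed the limit without a block and passed it with the dog as a block (adjusted p = 0.0328 and adjusted p = 0.0133). With the dog as a random block CCL19 passed and COL1A1 did not (adjusted p = 0.072). For the 5 genes named here that passed without a block, the dogs stood farther apart at the allergen site than in untreated skin. This did not hold for all named transcripts that passed, which are listed below. WDFY4 (-0.49 and 0.24) and ENSCAFT00000041612 (0.84 and -0.28) stood closer together at the allergen site. Both had been picked by their values in untreated skin, so this narrowing is no independent result.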

How the data were processed

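RNA from 60 skin biopsies of 12 dogs was measured on one-colour Agilent canine arrays, of which the 12 of untreated skin are compared here. The values are intensity values that the authors deposited: the processed signal of each spot from Feature Extraction 10.7.3.1, with background subtracted and no scaling between arrays. The 930 values marked as outliers were set to missing. Noncontrol spots had to be well above background on 5 or more arrays of either group. Kept signals were scaled by the vsn model, reimplemented and tested on simulated data, and replicate spots were then averaged. Its log2-like scale compresses dim signals. Group means were fitted with limma 3.58.1 (statmod 1.5.0, R 4.3.3), unpaired and two-sided, with Benjamini-Hochberg adjustment over the 45097 probes, and counts are of distinct identifiers. Confidence intervals are 95%. The number of arrays limits the precision.

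Symbols came from a RefSeq table (1072 identifiers) and the study's lists (528). Named genes were every identifier past the limits, the 8 highest and 8 lowest differences among genes with a symbol and an unadjusted p below 0.05, the lead genes of 32 lists that had a kept probe (61 of 107), and the 6 most variable genes. The 32 lists held 688 genes, of which 211 were kept. The members and lists were chosen with earlier results of these data known. Collagen probe values, other members of lists, values without dog 2847 or 2716, genes whose groups did not overlap, and transcripts without a symbol were picked after their values were seen.

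Array measures were compared by exact two-sided permutation over dogs. For the patch sites, 59 arrays were fitted together; specimen 14 was left out as in the study. Dog numbers pair the biopsies: after subtracting the group mean, the deviations of the untreated skin and the 6 hr saline site correlated across probes with a median of 0.275 within a dog (12 pairs) and -0.0953 between dogs of a group. Alternatives were other scalings and filters, slide or dog as a block, single slides, array weights, a variance trend and each dog left out. Tables and figures used matplotlib 3.10.9, scipy 1.17.1, pandas 2.3.3 and numpy 2.4.6 in Python 3.11.15. The later patch sites other than those compared, the histology and the qPCR were not analysed here.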

Additional observations from a re-analysis of the deposited data

Results flagged for a closer look

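Values of single dogs far from the rest of their group in untreated skin were, among the nonsensitized dogs, CCL2 at 11.23, GAPDH at 15.63 and MYOZ1 at 11.18 in dog 2847, CCR4 at 6.41 and ENSCAFT00000012133 at 5.99 in dog 2716, ZACN at 9.77 in dog 2800, and, on the low side, IL13RA2 at 5.45 in dog 2802. Among the sensitized dogs they were OCLN at 7.85 in dog 2838, and CCL17 at 10.6 and MRC1 at 8.78 in dog 2853. The measure is the gap to the next dog over the range of the group. Chance sets apart a sample in about 1 in 20 groups by it, and 83 transcripts in 2 groups were searched. That rate does not apply to genes named for their spread, such as ZACN and MYOZ1. The gap over range was 0.94 for ZACN, 0.93 for MYOZ1, 0.90 for CCL17, 0.88 for CCL2 and 0.84 for GAPDH. For the others it lay between 0.65 and 0.71. Dog 2847 also stood apart across the muscle list. How many of these values would arise by chance was not tested.

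The difference between the dogs in untreated skin minus that at the 24 hr allergen site passed the limits for the named transcripts listed here. Values are log2 differences of differences. AOX4, LOR, PTX3, MRC1 and PTGES are the genes already given above. Positive values, where the difference between the dogs was higher in untreated skin than at the allergen site, were AOX4 at 2.63, LOR at 1.46, KPRP at 1.39, ENSCAFT00000041612 at 1.13, CGN at 0.97, FAM13A at 0.83, GATA3 at 0.83 and ALOXE3 at 0.66. Of these, ENSCAFT00000041612 was singled out after its values in untreated skin were seen. It passed the filter in untreated skin through the sensitized dogs alone. Its test reuses those values, so its passing is no independent result. Negative values were PTX3 at -3.19, IL18BP at -2.03, SELE at -1.92, PLSCR1 at -1.43, IL13RA2 at -1.33, MRC1 at -1.3, PTGES at -1.1, WDFY4 at -0.72 and CCR4 at -0.63. All of these passed with the dog as a block, and 0 with the slide as a block. In the latter PLSCR1 (-1.41), KPRP (1.38) and IL18BP (-1.91) kept about their size, whereas ALOXE3 (0.40), CCR4 (-0.36) and GATA3 (0.57) were smaller. Other named genes passed with the dog as a block but not without it or with the slide. Among them were S100A8 (-3.08), IL33 (-1.44), CCL8 (-1.93), CCL17 (-2.08), COL1A2 (0.61) and PPARA (0.66). Of the genes that passed without a block, AOX4, FAM13A, PLSCR1, PTGES and WDFY4 had been named by their differences in untreated skin, which the test reuses.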

How the results depend on the processing

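The count of 0 called identifiers in untreated skin was the same under all alternatives run except these: 112 within slide 8 (3 higher and 109 lower), 1 with 59 arrays in 1 fit, and 24 at an unadjusted p below 0.002 with 1.5-fold. The nonsensitized side of slide 8 is dog 2847 alone. Of its 112 identifiers 7 carry a symbol, 4 of them in the skeletal muscle list (MYOZ1, TCAP, MYH7, MYL2), and 6 of the 112 had an unadjusted p below 0.05 without dog 2847. These calls were looked at after their values were seen. The single call of the 59-array fit was ENSCAFT00000041612, at 0.84 (SE 0.14, limma, adjusted p = 0.0143), which passed the filter on 12 arrays through the sensitized dogs alone. No paired analysis was possible because the groups of the untreated skin are different dogs. The count against 6 hr saline was 0 under all alternatives run. The count of 809 against 24 hr allergen was 2769 with the dog as a replicate block, 2612 with it as a random replicate block, 390 without a filter on dim probes, 2662 with all 60 arrays, 17 with the slide as a block, and between 162 and 2362 with a dog left out. The cause was not tested. With a dog left out, the difference in the share of spots well above background lay between 1.69 and 3.56 points and that in median signal between 4.96 and 13.1 units, the highest of both without dog 2838. Of the 83 named values, between 3 (without dog 2840) and 13 (without dog 2716) changed sign with a dog left out, 10 with the slide as a block, 13 within slide 7 and 27 within slide 8. Moves by over 1 SD numbered 0 with the slide as a block, 2 within slide 7 and 23 within slide 8. Dim probes limit what the arrays can show, since a signal near background depends on the scaling.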
